A study of Mus musculus with 4 samples.

Results

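Keratins are the intermediate filament proteins of epithelial cells, and the values below describe how their genes read in progestin-driven mouse mammary tumours with and without the antiprogestin RU486. Members were all genes whose symbol starts with Krt and a digit and that had a probe set assigned to that 1 symbol, which gave 40 keratins among 12393 genes on the array. The RefSeq table held 53 protein-coding keratin genes, and the 40 were those with such a probe set. Each gene was read through its brightest probe set. The tumours came from female nulliparous FVB mice that received 15 mg of MP (Depo-Provera, a depot progestin) and then 4 weekly gavage doses of 1 mg DMBA, a polycyclic carcinogen, and these treatments were common to all 4 groups. Mice were wild type (WT) or MMTV-PAX8PPARg, a line in which the mouse mammary tumour virus promoter, active in mammary and some other epithelia, drives PAX8PPARg, which joins a paired-box transcription factor to a nuclear receptor. Within each genotype, 60-day release pellets contained placebo or else RU486 at 2.5 mg (mifepristone), an antagonist at the progesterone receptor and also at the glucocorticoid receptor. Implantation first followed the last DMBA dose by a day, and another came 60 days later. RNA from 5 mice was pooled per group and run on a single Affymetrix array, so with 1 array in each of 4 groups no difference has a test, and how far mice or pools of one group vary is unknown. Ages were not stated beyond WT littermates having been matched to the transgenic mice.

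Keratin filaments form only when a type I keratin, which is acidic, pairs with a type II keratin, which is neutral to basic. In the mouse the genes lie in a type I cluster on chromosome 11 and a type II cluster on chromosome 15, except that the type I gene Krt18 lies beside Krt8 on chromosome 15. The pair in use follows the kind of epithelium. Luminal cells of the mammary gland are known for Krt8, Krt18, Krt19 and Krt7, and the basal cells that surround them for Krt5 and Krt14. Krt6, Krt16 and Krt17 are induced in wounded or hyperproliferative epidermis, Krt1 and Krt10 in cells that have left the basal layer, and others build the inner root sheath and the shaft of hair. Of the 40 measured, 20 were type I and 20 type II.

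Values are given on the deposited signal scale with the WT arrays first (placebo, then RU486) and the PAX8PPARg arrays after them in the same order. The arrays shared a 2% trimmed mean, but the highest of 27 probe sets for bacterial sequences absent from the mouse read 9.6, 18.5, 8.3 and 35.3 in that order. Signals that did not exceed this level are termed at background level, and 35, 20, 31 and 31 of the 40 keratins were above it. Relative to the WT placebo array, the 18 hybridisation spike-in probe sets had a median of 1.59 in WT RU486 and 2.43 in PAX8PPARg RU486. The ratio of 3' to 5' Gapdh signal, a measure of RNA integrity, was 2.51, 3.33, 2.89 and 3.01. Pax8 signals of 0.5, 1.8, 0.4 and 3.1 were all at background level. Pparg read 75.9, 35.4, 497.5 and 13.2, the last at background level. Whether either probe set reads the fusion transcript is unknown. Pparg was highest on the PAX8PPARg placebo array, as was the adipocyte list described below, and the part of adipocytes in its signal was not tested. Each difference was computed from log2(signal + 16) after median centring of the arrays, which understates differences of dim genes, and a gene is counted when it differed at least 2-fold. In a gene with a further probe set above the median level, the 2 brightest probe sets disagreed by a median of 0.19 log2 for RU486 minus placebo in WT and 0.25 in PAX8PPARg (2267 genes). The 95th percentiles were 0.68 and 0.83. Both probe sets read the same arrays, so this is disagreement between probe sets and does not measure spread between arrays.

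The first comparison asked how keratins differed between RU486 and placebo tumours of WT mice. The difference ran to the lower side: 26 of 40 were at least 2-fold lower, against 8.88% of all 12393 genes, and 0 were at least 2-fold higher, against 7.46%. The median keratin difference was -1.94 log2, and that of all genes was 0.01. There were 13 keratins lower by 8-fold or more, against 1.39% of all genes; 6 of the 13 were at background level on the WT RU486 array, and 1 of these, Krt86, has a lower bound under 8-fold. In the second comparison, RU486 against placebo tumours of PAX8PPARg mice, the family leaned the other way. Of the 40 keratins, 29 were at least 2-fold higher, against 10.6% of all genes, and 1 was lower, against 7.08%; 8 were higher by 8-fold or more, against 0.557%. The median was 1.35, against 0.13 over all genes, but it was -0.04 when arrays were scaled to the spike-ins, where the median of all genes was -1.26 and 10 keratins were higher and 4 lower. Of all 12393 genes, 139 were higher and 8450 lower under that scaling. Directions in PAX8PPARg are therefore relative to the array as a whole, and every PAX8PPARg difference below shifts by -1.39 under that scaling. Every WT difference shifts by -0.73. In WT 30 keratins were then lower and 0 higher (median -2.67). Of all 12393 genes, 3877 were then lower and 248 higher in WT (median -0.72), so the WT shares also depend on scaling. A difference with a signal at background level is not exact, since its size depends on the added 16, and its bound is given where one side was above background. In bulk tissue, fewer cells of a type and less RNA per cell cannot be told apart.

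**Figure D1:**
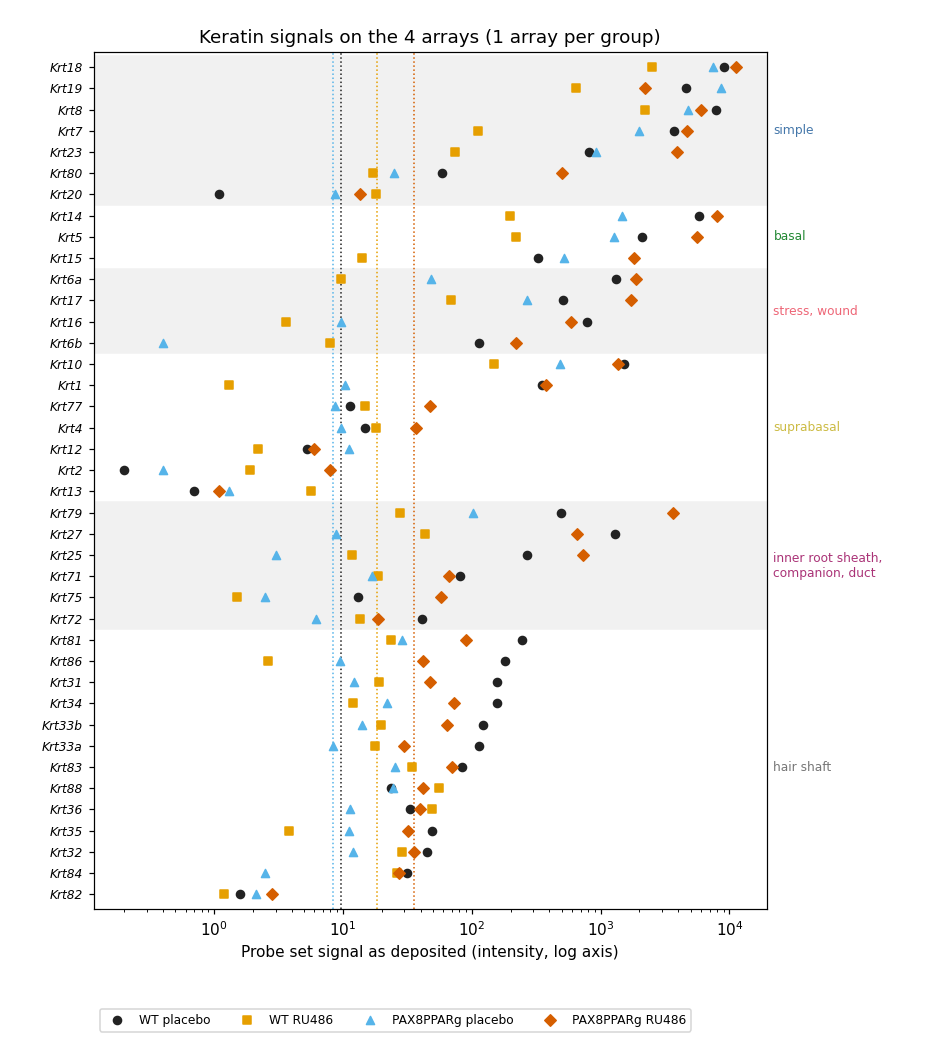
Deposited probe set signal (horizontal log axis) of each of the 40 keratins on the 4 arrays, 1 point per array, grouped by class. Dotted lines mark the highest bacterial control probe set of each array (9.6, 18.5, 8.3 and 35.3). The WT RU486 squares lie leftmost for most bright keratins, while Krt19 is highest on the PAX8PPARg placebo array at 8630.3.

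Both patterns met in the same members. There were 22 keratins at least 2-fold lower with RU486 in WT and at least 2-fold higher with RU486 in PAX8PPARg, or 55% of the family, against 2.03% of all genes. The pair of differences shares no array. Another 7 were within 2-fold in WT and higher in PAX8PPARg, 3 were lower in WT and within 2-fold in PAX8PPARg, 7 were within 2-fold in both, and 1, Krt19, was lower in both. No keratin was at least 2-fold higher in both or higher in WT and lower in PAX8PPARg.

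**Figure D2:**
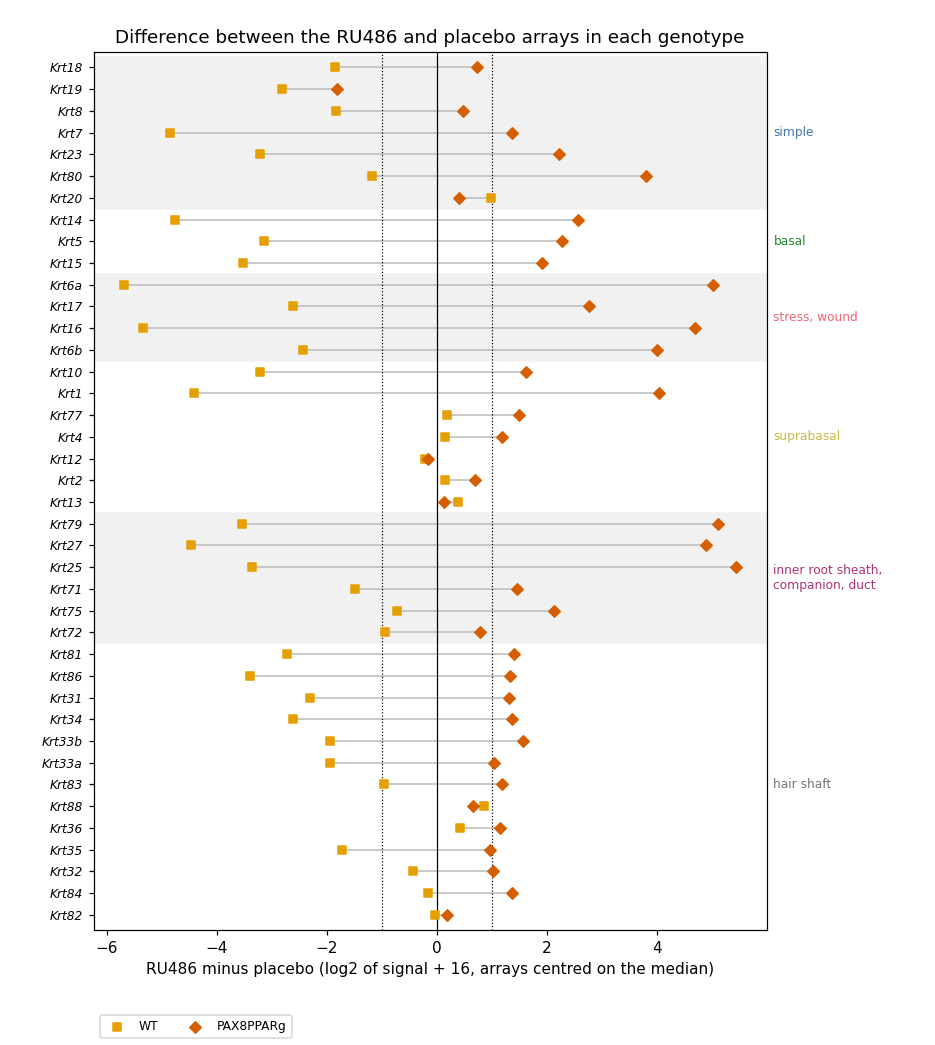
RU486 minus placebo (log2 of signal + 16, arrays centred on the median) for each keratin, squares for WT and diamonds for PAX8PPARg, 1 array per group; dotted lines mark 2-fold. The WT and PAX8PPARg points of most members stand on opposite sides of 0, from -5.69 and 5.02 for Krt6a to -1.18 and 3.79 for Krt80, while both points of Krt19 are negative. Scaled to the spike-ins, the PAX8PPARg median of the family turns to -0.04 and the WT median to -2.67.

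Among the 7 simple and luminal keratins, 6 were at least 2-fold lower with RU486 in WT (median -1.85). In PAX8PPARg 3 were higher and 1 lower, with a median of 0.72 that turned to -0.00275 under quantile normalization and to -0.67 when scaled to the spike-ins. Krt8, the type II keratin of every simple epithelium, read 7929.8, 2201, 4798 and 6035. Its partner Krt18 read 9097, 2507, 7472 and 11258. Both were lowest on the WT RU486 array, with differences of -1.84 and -1.85 in WT, and both stayed within 2-fold in PAX8PPARg (0.46 and 0.72). The other 2 probe sets of Krt8 gave smaller WT differences of -0.98 and -0.76, and -0.09 and 0.03 in PAX8PPARg, so the size for Krt8 is uncertain.

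Krt7, a keratin of ducts and glands, read 3687, 112, 1990.4 and 4659. Its WT difference of -4.86 was the 24th lowest of 12393 genes, far from the -1.84 of Krt8, and its PAX8PPARg difference was 1.35. Krt23, a type I keratin of glandular epithelia and tumours, read 816, 73.4, 919 and 3917, so the placebo arrays were alike and the RU486 arrays stood to either side of them (-3.22 in WT and 2.21 in PAX8PPARg). Krt80 read 58.9, 17.0, 24.7 and 499; the WT RU486 value is at background level, and the PAX8PPARg RU486 array stood above the other 3 (3.79 over placebo). Krt20, a keratin of gut and bladder lining, read 1.1, 17.9, 8.6 and 13.5. Only the 8.6 of PAX8PPARg placebo was above background level, on the array with the lowest ceiling (8.3).

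Krt19, a type I keratin of luminal and progenitor cells that has no tail domain, departed from the rest of the family. It read 4618, 640, 8630.3 and 2209, highest on the PAX8PPARg placebo array and lowest on the WT RU486 array. With RU486 it was lower in WT (-2.82) and in PAX8PPARg (-1.83), the 260th lowest of 12393 genes there. Krt19 was the 1 keratin at least 2-fold lower in PAX8PPARg, where Krt7 and Krt23 of the same class were higher. Genes at least 2-fold lower in both genotypes made up 1.48% of all genes, and 1 of 40 keratins is 2.5%, so the family as a whole did not stand out for that pattern. The adipocyte and B cell lists described below were also highest on the PAX8PPARg placebo array, and their part in the Krt19 value was not tested.

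All 3 basal keratins were at least 8-fold lower with RU486 in WT (median -3.52) and at least 2-fold higher in PAX8PPARg (median 2.26, and 0.87 when scaled to the spike-ins). Krt5, the type II keratin of basal cells, read 2082, 222, 1278 and 5637. Krt14, its type I partner, read 5817, 199, 1475 and 8034. Krt15, a keratin of basal and hair bulge cells, read 328.5, 14.0, 523 and 1828, of which 14.0 is at background level, so it was at least 9.98-fold lower in WT. In every one of the 3 the PAX8PPARg RU486 array was highest and the WT RU486 array lowest. Between the placebo arrays Krt14 was lower in PAX8PPARg (-2.16), Krt5 was within 2-fold (-0.89) and Krt15 was also within 2-fold (0.45). Of the 3 Krt14 probe sets, a further bright one gave -4.56 and 2.85 for RU486 in WT and PAX8PPARg, and a dim one with signals of 9.6 to 38.8 gave -0.14 and 1.23.

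All 4 stress and wound keratins were at least 2-fold lower in WT (median -3.98) and all 4 at least 2-fold higher in PAX8PPARg (median 4.34, and 2.95 when scaled to the spike-ins). Krt6a, a type II keratin of wounded epidermis and of mammary body cells and progenitors, read 1308, 9.7, 48.6 and 1889.9. Krt16, its type I partner, read 778, 3.6, 9.7 and 587.5. Under RU486 in WT both were at background level, so Krt6a was at least 38.4-fold and Krt16 at least 23.0-fold lower than on the placebo array.

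The 3 probe sets of Krt6a gave closely similar differences, from -5.69 to -5.13 in WT and from 4.92 to 5.16 in PAX8PPARg. Krt6b, a near-identical copy of Krt6a whose transcript its probe set may also detect, read 113, 8.0, 0.4 and 222. It was at background level on the WT RU486 and PAX8PPARg placebo arrays and at least 10.7-fold higher with RU486 in PAX8PPARg. Krt17, induced in wounds and also made by hair follicles and myoepithelium, kept a signal on every array, at 509, 68.9, 267 and 1725. Its placebo arrays were nearer to each other (-1.08) than those of Krt6a (-4.55) and Krt16 (-5.14). Its second probe set, at 0.4 to 7.8, was at background level throughout.

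Epidermal and mucosal suprabasal keratins split in 2. Krt1 and Krt10, the pair of the spinous layer, followed the basal and stress keratins, while the keratins of mucosa and cornea stood at or near background. Krt1 read 352, 1.3, 10.3 and 374, and Krt10 read 1527, 149, 482 and 1369. For both, the WT placebo and PAX8PPARg RU486 arrays were close together and above the other 2 arrays. Krt1 was at least 10.7-fold lower with RU486 in WT. In PAX8PPARg it differed by 4.02 and Krt10 by 1.61. The Krt1 signal of 10.3 on the PAX8PPARg placebo array lies just above the 8.3 ceiling, so the 4.02 is not exact.

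Krt4 and Krt13 are the pair of oral and oesophageal lining. Krt4 read 14.9, 18.0, 9.6 and 37.1. Krt13 read at most 5.6, and Krt2, a keratin of late epidermal layers, at most 8.0. Krt12, the keratin of the corneal surface, read at most 11.2. Krt77, of sweat gland ducts and epidermis, read 11.3, 14.8, 8.7 and 47.4. Krt4 and Krt77 count among the 4 of 7 members that were higher in PAX8PPARg, but their signals of 37.1 and 47.4 lie just above the 35.3 ceiling of that array. The class median in PAX8PPARg was 1.19, and 0.18, with 2 of 7 higher, once all signals under 35.3 were set to 35.3 on every array, and it turned to -0.21 when scaled to the spike-ins.

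Companion layer, duct and inner root sheath keratins include several of the highest values of the family in PAX8PPARg. Of 6 members, 4 were at least 2-fold lower in WT (median -2.42) and 5 at least 2-fold higher in PAX8PPARg (median 3.51, and 2.12 when scaled to the spike-ins). Krt79, which marks the duct from hair follicle to sebaceous gland, read 494, 27.6, 102 and 3656, so the PAX8PPARg RU486 array was highest by a wide margin. Its difference of 6.34 between the RU486 arrays was the 3rd highest of 12393 genes. Krt27, a type I inner root sheath keratin, read 1300.1, 43.1, 8.8 and 656. Krt25, another, read 268, 11.7, 3.0 and 732, at background level on the WT RU486 and PAX8PPARg placebo arrays, so it was at least 8.22-fold lower in WT and at least 33.8-fold higher in PAX8PPARg.

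Krt71, the type II partner of both, read 81.0, 18.6, 16.9 and 66.4. On the WT RU486 array it lay just above the 18.5 ceiling, so its WT difference of -1.49 is not exact. Krt75, of the companion layer, read 13, 1.5, 2.5 and 57.9, and Krt72 read 41.1, 13.6, 6.2 and 18.6, above background level on the WT placebo array alone. All 6 members were higher on the WT placebo than on the PAX8PPARg placebo array, 5 of them at least 2-fold, led by Krt27 (-5.92) and Krt25 (-4.09). These sizes are not exact, as Krt27 (8.8) lay just above and Krt25 (3.0) under the 8.3 ceiling of the PAX8PPARg placebo array.

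Promoters are shown for 2 neighbours that moved together, Krt25 and Krt27, for the basal keratin Krt5, and for the simple pair Krt8 and Krt18, which moved least among the bright members. RefSeq (GRCm38.p6) entries were found for 25 of the 40 keratins. Each line gives the 250 bases before the annotated start, 5′ to 3′ on the gene's strand, with matches to TATAAA (the core of a TATA box) and CACCC (a core of Krüppel-like factor sites) on either strand in capitals; a match to one cannot overlap a match to the other. The windows are chr11:99322952-99323201 (minus strand) for Krt25, chr11:99351119-99351368 (minus) for Krt27, chr15:101712906-101713155 (minus) for Krt5, chr15:102004343-102004592 (minus) for Krt8 and chr15:102027966-102028215 (plus) for Krt18.
Krt25: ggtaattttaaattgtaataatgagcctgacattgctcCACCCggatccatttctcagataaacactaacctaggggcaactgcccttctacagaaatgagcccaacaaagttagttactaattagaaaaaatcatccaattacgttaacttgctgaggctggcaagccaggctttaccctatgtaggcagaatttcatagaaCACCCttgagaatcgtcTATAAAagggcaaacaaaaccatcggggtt
Krt27: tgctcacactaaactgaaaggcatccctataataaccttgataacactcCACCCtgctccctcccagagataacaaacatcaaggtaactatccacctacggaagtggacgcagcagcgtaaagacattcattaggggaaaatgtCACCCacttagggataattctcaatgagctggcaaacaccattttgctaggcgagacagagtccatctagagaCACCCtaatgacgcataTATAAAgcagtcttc
Krt5: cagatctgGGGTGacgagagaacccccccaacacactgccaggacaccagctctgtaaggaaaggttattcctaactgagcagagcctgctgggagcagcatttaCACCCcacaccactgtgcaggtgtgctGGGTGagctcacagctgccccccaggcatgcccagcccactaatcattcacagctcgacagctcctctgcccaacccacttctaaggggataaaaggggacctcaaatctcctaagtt
Krt8: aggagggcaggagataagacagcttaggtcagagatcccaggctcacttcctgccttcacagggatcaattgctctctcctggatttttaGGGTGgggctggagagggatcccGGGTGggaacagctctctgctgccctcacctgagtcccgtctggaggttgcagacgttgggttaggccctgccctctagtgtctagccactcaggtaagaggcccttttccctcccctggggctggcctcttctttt
Krt18: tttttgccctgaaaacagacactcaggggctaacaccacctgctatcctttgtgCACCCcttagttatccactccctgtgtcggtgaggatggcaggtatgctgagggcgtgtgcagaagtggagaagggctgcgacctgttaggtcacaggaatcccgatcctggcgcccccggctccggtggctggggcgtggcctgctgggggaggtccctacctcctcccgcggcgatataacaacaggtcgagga

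The TATAAA core lay in 12 of 25 keratin promoters (48%), against 13% of 27025 promoters of the same length. It was found in 9 of 13 promoters of the hair follicle classes (inner root sheath, companion and duct, and hair shaft) and in 3 of 12 of the others. Among the 9, the only matches of Krt84 and Krt72 lie on the reverse strand and far from the start, at -206 to -201 and -203 to -198, so they are letter matches away from the usual place of a TATA box. The match of Krt25 lies at -30 to -25. That of Krt27 is nearer the start, at -15 to -10. Those of Krt71 and Krt33b are further from it, at -40 to -35 and -47 to -42. CACCC lay in 21 of 25 (84%), against 51.3% of all promoters. The 25 include the Krt14 entry, which holds CACCC and no TATAAA and whose annotated start is not the outermost of that gene. The other motifs searched, both strands each, were TGANTCA (AP-1) in 1 of 25 against 6.87%, GCCNNNGGC (AP-2) in 2 against 13.6%, GGAA (ETS core) in 22 against 93.4%, and TTCNNNGAA (STAT5) in 2 against 7.18%. These are letter matches, and keratin promoters share an origin by duplication.

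Of 13 hair shaft and nail keratins, 10 were highest on the WT placebo array and 1, Krt82, on the PAX8PPARg RU486 array, where it was at background level. In the companion, duct and inner root sheath class the split was 3 and 3 of 6, with Krt27, Krt71 and Krt72 highest on the WT placebo array. With RU486 in WT 7 of 13 were at least 2-fold lower (median -1.72). Krt81, a type II keratin of the hair cortex, read 246, 23.5, 28.7 and 90.8. Krt86, another, read 181.5, 2.6, 9.4 and 41.8, and was at least 5.72-fold lower with RU486 in WT. The type I shaft keratins Krt31 (158, 19.1, 12.2 and 47.5), Krt34 (156, 12.0, 22.0 and 72.6), Krt33b (121, 19.6, 14.0 and 64.7) and Krt33a (114, 17.7, 8.3 and 29.5) ran in the same order for the WT placebo array, which was highest. Krt83 read 83.2, 34.5, 25.3 and 69.8.

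In PAX8PPARg 10 of 13 hair shaft keratins were at least 2-fold higher with RU486 (median 1.19), the highest being 1.56 for Krt33b. Setting signals under 35.3 to 35.3 on every array left 1 of 13 higher, and scaling to the spike-ins turned the median to -0.20 with 0 higher. On the PAX8PPARg RU486 array, which had the highest background, the class read from 2.8 to 90.8. Between the placebo arrays, where backgrounds were alike (9.6 and 8.3), PAX8PPARg had 11 of 13 at least 2-fold lower (median -1.55), from -3.15 for Krt86 to -0.15 for Krt82. Krt32, Krt35, Krt36, Krt84 and Krt88 read at most 55.3 on any array, and Krt82 was at background level on all 4, as were Krt2 and Krt13. Several of these genes are close copies of each other (Krt81, Krt83 and Krt86; Krt31, Krt33a, Krt33b and Krt34), so a probe set may read more than 1 of them.

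Partners were set side by side by their differences, since levels of different probe sets are not comparable. Krt8 and Krt18 differed by -1.84 and -1.85 in WT and by 0.46 and 0.72 in PAX8PPARg. In WT, Krt1, Krt6a, Krt6b, Krt16, Krt25 and Krt86 have only bounds, being at background level with RU486, as Krt6b and Krt25 do in PAX8PPARg from their placebo array, so the values of their pairs cannot be ranked there. Krt6a and Krt16 gave -5.69 and -5.34 in WT and 5.02 and 4.69 in PAX8PPARg. Krt5 and Krt14 were further apart in WT (-3.14 and -4.76) than in PAX8PPARg (2.26 and 2.57). Krt1 and Krt10 gave -4.41 and -3.22 in WT and 4.02 and 1.61 in PAX8PPARg. Krt71 and Krt27 gave -1.49 and -4.48 in WT and 1.46 and 4.89 in PAX8PPARg. Krt71 read 18.6 on the WT RU486 array, just above the 18.5 ceiling, so this pair cannot be ranked in WT either. On the PAX8PPARg placebo array Krt1, Krt16 and Krt27 read 10.3, 9.7 and 8.8, just above the 8.3 ceiling. Their PAX8PPARg differences are therefore not exact. Krt6b and Krt17 gave -2.43 and -2.63 in WT and 3.99 and 2.75 in PAX8PPARg, and Krt86 and Krt31 gave -3.41 and -2.31 in WT and 1.32 and 1.30 in PAX8PPARg. Type I keratins as a whole had medians of -2.46 and 1.33 for RU486 in WT and PAX8PPARg, and type II keratins of -1.33 and 1.37.

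Along the clusters, some neighbours in the order of measured genes had like differences and others did not. On chromosome 11, Krt33a, Krt33b, Krt34 and Krt31 gave -1.94, -1.94, -2.62 and -2.31 in WT and 1.04, 1.56, 1.35 and 1.30 in PAX8PPARg, and these are close copies that probe sets may share. Krt14, Krt16 and Krt17 gave 2.57, 4.69 and 2.75 in PAX8PPARg, and Krt19, lower in both genotypes, lies between Krt15 (1.91 in PAX8PPARg) and Krt14. Krt12 and Krt20, at or near background, lie between Krt10 (-3.22 in WT) and Krt23 (-3.22). On chromosome 15, Krt6b, Krt6a, Krt5 and Krt71 follow each other and gave 3.99, 5.02, 2.26 and 1.46 in PAX8PPARg, while Krt2 (0.14 in WT, at background level on all arrays) is next to Krt1 (-4.41).

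The third comparison set the genotypes against each other under placebo. Of 40 keratins, 25 were at least 2-fold lower in PAX8PPARg, against 5.49% of all genes, and 0 were higher, against 4.34%; the median was -1.38, against -0.15 over all genes. Among members above background on both placebo arrays, Krt27 (-5.92), Krt16 (-5.14), Krt6a (-4.55) and Krt1 (-4.00) had the largest differences, and Krt25 was at least 13.3-fold lower. On the PAX8PPARg placebo array Krt27, Krt16 and Krt1 read 8.8, 9.7 and 10.3, just above its 8.3 ceiling. The sizes of these 3 are therefore not exact. Among simple keratins 2 of 7 were lower, and Krt23 (-0.02), Krt18 (-0.47) and Krt19 (0.71) were within 2-fold. Without centring the count was 21. Under RU486, in contrast, 25 of 40 were at least 2-fold higher in PAX8PPARg than in WT, against 10.9% of all genes, and 0 were lower, against 10.2%; the median was 1.48, against 0.01. Here simple keratins took part, with 6 of 7 higher, among them Krt23 (5.40), Krt7 (5.14), Krt18 (2.10) and Krt19 (1.70), and the basal keratins reached 4.51 to 5.88. Each of these comparisons uses an array of an RU486 comparison above, so they are not independent of it.

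The fifth contrast, the RU486 effect in PAX8PPARg minus that in WT, had 32 of 40 keratins at least 2-fold positive, against 15.6% of all genes, and 0 negative, against 12.2%. Its median was 3.24, against 0.15 over all genes. Scaled to the spike-ins, 28 keratins were positive and 1 negative (median 2.58), against 877 and 3388 of all genes (median -0.52). By class, the median was 8.22 for stress and wound, 5.80 for companion, duct and inner root sheath, 5.43 for basal, 2.68 for hair shaft, 2.58 for simple and 1.05 for suprabasal keratins. The suprabasal median is the value of Krt4, a member near background, while Krt1 and Krt10 stood at 8.44 and 4.83. Values of dim members, among them the hair shaft keratins, are understated, so these medians do not rank the classes. Over the 40 keratins the arrays of WT placebo and PAX8PPARg RU486 lay a median of 0.73 log2 apart, and those of WT RU486 and PAX8PPARg placebo 0.66 apart. The other 4 pairs of arrays lay 1.37 to 1.94 apart. Over all genes the 6 pairs lay 0.31 to 0.46 apart, the WT RU486 array being 0.46 from either PAX8PPARg array. The short distance between these 2 arrays over keratins includes members at background level on both.

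**Figure D3:**
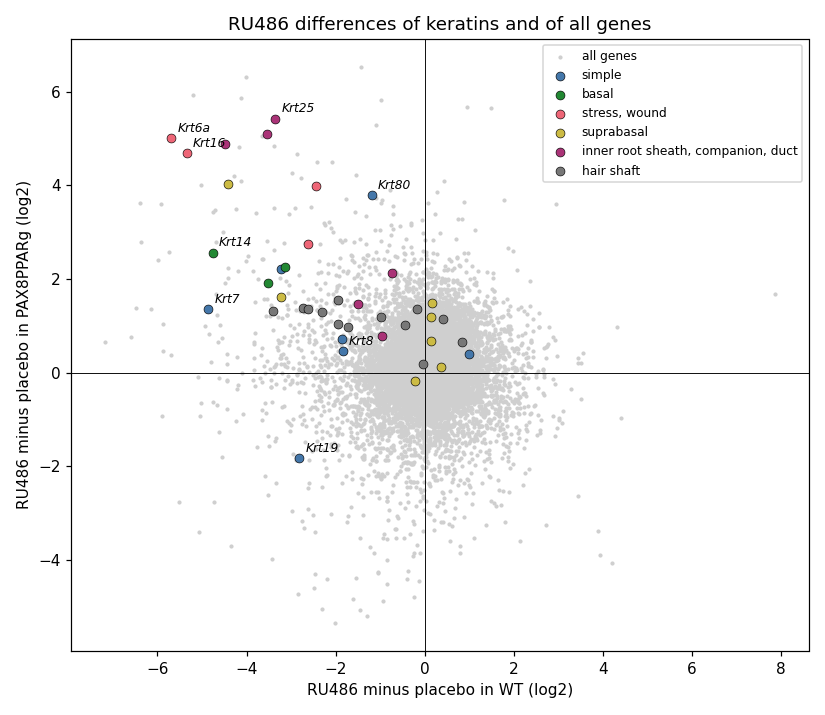
RU486 minus placebo in WT (horizontal, log2) against the same in PAX8PPARg (vertical, log2); grey points are all 12393 genes and coloured points the 40 keratins by class, 1 array per group. Most keratins lie in the upper left, where 22 of 40 pass 2-fold in both directions against 2.03% of all genes, and Krt19 lies in the lower left. Vertical positions shift by -1.39 and horizontal positions by -0.73 when arrays are scaled to the spike-ins.

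Genes that work with keratins were read from lists. Their counts, and those of the cell type lists further on, stand against shares over all genes. With RU486 in WT 8.88% of all genes were lower and 7.46% higher, and in PAX8PPARg 10.6% were higher and 7.08% lower. Keratin anchors, the desmosome, hemidesmosome and plakin genes that tie filaments to the membrane, had 10 of 16 at least 2-fold lower in WT and 2 higher (median -1.38), and 7 higher and 1 lower in PAX8PPARg (median 0.85, or -0.54 when scaled to the spike-ins). The desmosomal cadherin Dsc2 read 490, 20.1, 326 and 871. Dsc1, of upper epidermal layers, read 95.1, 7.1, 7.8 and 182, at background level on the 2 middle arrays. Dsg2, the desmosomal cadherin of simple epithelia, read 698, 71.7, 1139 and 429, highest on the PAX8PPARg placebo array as Krt19 was, and it was the 1 anchor lower in PAX8PPARg (-1.24). Among the anchors with the largest differences were also the hemidesmosomal collagen Col17a1 (-2.86 in WT) and, in PAX8PPARg, Pkp1 (2.42) and Dsc3 (2.32).

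Keratin-associated proteins and the matrix of cornified cells had 25 of 43 lower in WT (median -1.45) and 24 of 43 higher in PAX8PPARg (median 1.17, or -0.22 when scaled to the spike-ins). Of the 43, 12, 36, 30 and 23 were at background level on the 4 arrays, and with signals under 35.3 set to 35.3 the counts became 16 lower in WT (median -0.13) and 13 higher in PAX8PPARg (median 0.13, that of all genes). Trichohyalin (Tchh), the matrix protein of the inner root sheath, read 731, 43.6, 19.9 and 1073. Krtdap (-4.75), Krtap21-1 (-4.54) and Sprr1b (-4.29), all at background level on the WT RU486 array, had the largest WT differences, and Tchh (5.06), Rptn (4.66) and Sprr1b (4.20) the largest in PAX8PPARg.

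Of 23 transcription factors of keratin-expressing epithelia, 13 were lower and 1 higher in WT (median -1.27), while 5 were higher and 4 lower in PAX8PPARg (median 0.19, or -1.20 when scaled to the spike-ins). Elf5, a regulator of luminal progenitors, read 3415, 41.9, 1650.4 and 782. It had the largest WT difference of the list (-5.89), followed by Grhl1 (-4.43) and Ehf (-4.21), and these 3 were within 2-fold in PAX8PPARg. Foxa1, which acts with the estrogen receptor in luminal cells, read 247, 41.5, 1146 and 33.6, the last at background level. The next largest PAX8PPARg differences were those of Klf5 (2.52) and Foxq1 (2.43).

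Of 14 intermediate filament genes outside the keratin family, 4 were at least 2-fold higher and 0 lower with RU486 in WT, against 7.46% of all genes higher and 8.88% lower. In PAX8PPARg 2 were higher and 0 lower (medians 0.51 and 0.56 in WT and PAX8PPARg, or -0.21 and -0.83 when scaled to the spike-ins). Nefl, the light chain of neurofilaments, read 8.0, 5589, 5.5 and 46.8. It was at background level on both placebo arrays and differed by 7.87 in WT, followed by peripherin (Prph, 1.82) and nestin (Nes, 1.44). In PAX8PPARg Nefl (1.68) and Lmna (1.06) were the 2 higher, and Nefm (0.87) was at background level on all 4 arrays.

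**Figure D4:**
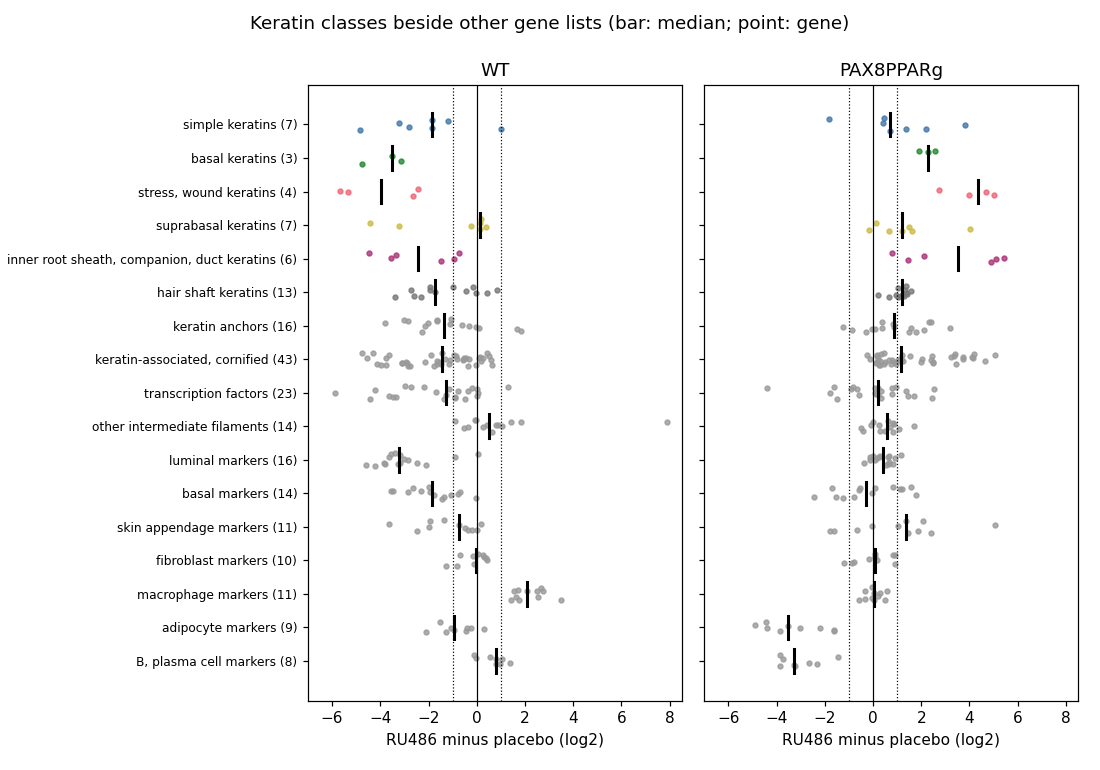
RU486 minus placebo (log2) in WT (left) and PAX8PPARg (right) for keratin classes (coloured) and other gene lists (grey), with the number of genes in brackets; points are genes, bars medians, 1 array per group. In WT, luminal markers (median -3.23) were low with the keratins; in PAX8PPARg their median was 0.42 (-0.97 when scaled to the spike-ins) while stress keratins stood at 4.34. Scaled to the spike-ins, the WT panel shifts by -0.73 and the PAX8PPARg panel by -1.39.

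Several lists of cell type markers also differed between the arrays, not always in the direction of the keratins, and their part in the keratin results was not tested. Luminal epithelial genes other than keratins had 14 of 16 at least 2-fold lower with RU486 in WT (median -3.23) and 1 of 16 higher in PAX8PPARg (median 0.42, or -0.97 when scaled to the spike-ins), and their summed signal was 27592, 4178.5, 23768 and 30143. The largest WT differences were those of Cldn7 (-4.61), Esrp1 (-4.22) and St14 (-3.84), and the largest in PAX8PPARg those of Spint2 (1.17), Rab25 (0.91) and Cdh1 (0.85). On the WT RU486 array 4 of the 16 were at background level. Basal and myoepithelial genes other than keratins had 11 of 14 lower in WT (median -1.85), and 4 higher and 4 lower in PAX8PPARg (median -0.29, or -1.68 with 0 higher and 9 lower when scaled to the spike-ins), with summed signals of 20159.5, 8482, 21549 and 16436. Lama3 (-3.57), Trp63 (-3.48) and Col17a1 (-2.86) had the largest WT differences. In PAX8PPARg the hemidesmosome gene Itgb4 (1.79) was among the 4 higher, and the contractile genes Myh11 (-2.45) and Cnn1 (-1.71) among the 4 lower. Non-keratin genes of the inner root sheath and hair shaft had 5 of 11 lower in WT (median -0.75), and 7 higher and 2 lower in PAX8PPARg (median 1.35, or -0.04 when scaled to the spike-ins), with summed signals of 2177, 557, 1909.7 and 2131. Of these 11, 2, 6, 3 and 3 were at background level on the 4 arrays, and with signals under 35.3 set to 35.3 the list had 3 higher and 1 lower in PAX8PPARg (median 0.13). Tchh (-3.65), Crym (-2.50) and S100a3 (-1.99) led in WT, and Tchh (5.06), Tgm3 (2.39) and S100a3 (2.09) in PAX8PPARg. Of 7 sebaceous gland genes, 3 were lower and 1 higher in WT, and 2 lower and 0 higher in PAX8PPARg.

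Outside the epithelium, 11 of 11 macrophage genes were at least 2-fold higher with RU486 in WT (median 2.08), against 7.46% of all genes, with summed signals of 18001, 64253, 19881.5 and 20846. The adipocyte list summed to 9839.6, 4025, 24315 and 3849.7 and the B and plasma cell list to 167, 417, 3801 and 232, both highest on the PAX8PPARg placebo array. Skeletal muscle genes summed to 6983, 4979.8, 1559 and 1348, higher on both WT arrays. Fibroblast genes summed to 45721, 50803.5, 35859 and 48149.7, with medians of -0.03 and 0.09 for RU486 in WT and PAX8PPARg.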

How the data were processed

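Signals of 22690 probe sets on 4 Affymetrix arrays were used as the authors deposited them, as linear intensity; per the labels' protocols each array carried biotin-labelled cRNA from RNA pooled from 5 mice, and no source used here names the signal algorithm. The values show a common 2% trimmed mean, so arrays had been scaled before deposit. Of 22626 non-control probe sets, 20380 had 1 gene symbol in the platform annotation, 691 had several, and the rest had none; updating through Entrez IDs changed 0 symbols. A gene was read through its brightest probe set by mean signal. Differences of the deposited signals were taken on log2(signal + 16) after centring each array on its median over non-control probe sets. Members, classes and lists were chosen with earlier results of these data known. All signals were printed for 30 of the 34 keratins above background on an array and at least 2-fold different in a comparison; beyond 30, the dimmest of the largest class were given by range. The rule for other lists was the 3 genes with the largest RU486 difference in each genotype; it was followed for pathway and epithelial lists, and the others are given by sums and counts. "At least N-fold" sets the dim signal to the highest bacterial control of its array. No test was made with 1 array per group, so precision is limited by the number of arrays. The steps were tested on simulated data, with changes planted and false calls counted only in genes at or above the median level. That test does not cover the 28 keratins under the median level. Alternatives were other pseudocounts (1 and 64), no centring, quantile normalization, averaged probe sets, a level filter and floors, and, chosen after seeing the data, a common floor and spike-in scaling. Python 3.11.15, numpy 2.4.6 and pandas 2.3.3 were used.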

Additional observations from a re-analysis of the deposited data

Results flagged for a closer look

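The RU486 difference pointed in opposite directions in WT and PAX8PPARg, by at least 2-fold each, for the members and classes given here, and that contrast of 4 single arrays was not tested. The value of each is the RU486 effect in PAX8PPARg minus that in WT, in log2. The median over all 40 keratins was 3.24. Stress and wound keratins had a median of 8.22, with Krt6a at 10.70, Krt16 at 10.03, Krt6b at 6.42 and Krt17 at 5.38. Companion, duct and inner root sheath keratins had a median of 5.80, with Krt27 at 9.37, Krt25 at 8.79, Krt79 at 8.65 and Krt71 at 2.94. Basal keratins had a median of 5.43, with Krt14 at 7.33, Krt15 at 5.43 and Krt5 at 5.40. Hair shaft keratins had a median of 2.68, with Krt86 at 4.73, Krt81 at 4.12, Krt34 at 3.97, Krt31 at 3.61, Krt33b at 3.51 and Krt33a at 2.98. Krt1 stood at 8.44 and Krt10 at 4.83 among suprabasal keratins, and Krt7 at 6.21, Krt23 at 5.42 and Krt80 at 4.98 among simple keratins. Members at or just above background level on an array have values that are not exact. The opposition depends on scaling: with arrays scaled to the spike-ins the PAX8PPARg RU486 median was -0.04 for all keratins and -0.20 for hair shaft keratins, 10 keratins were at least 2-fold higher, and Krt7, Krt31, Krt33a, Krt34, Krt81 and Krt86 turned negative.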

How the results depend on the processing

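With 1 pool of 5 mice per group there is no spread. No paired analysis was possible because each group had 1 array and the labels give no replicate numbers; no array could be left out. Over 10 settings, 1410 values of the 30 keratins printed in full were recomputed: 1300 stayed on their side of 2-fold, 86 dropped under it, 16 passed it and 8 changed sign. All 8 were RU486 differences in PAX8PPARg under spike-in scaling: Krt31 -0.0865, Krt33a -0.35, Krt34 -0.0363, Krt4 -0.21, Krt7 -0.0372, Krt81 -0.00102, Krt83 -0.20 and Krt86 -0.0713. For RU486 in PAX8PPARg the 29 keratins higher became 15 with a pseudocount of 64, 16 with a common floor, 9 above the level filter and 10 with spike-in scaling, where 4 rather than 1 were lower and 1 was negative in the double difference. Over all genes, the 1316 of 12393 that were higher became 504, 681, 317 (of 6197 genes) and 139 in these settings. The level filter kept 12 keratins, of which 12 were lower with RU486 in WT, 6 lower in PAX8PPARg under placebo, 12 higher under RU486 and 11 positive in the double difference. Of the 6197 genes kept, the counts in that order were 512, 274, 448 and 723. The 25 lower under placebo became 16 with a pseudocount of 64, where the 680 genes lower became 382. Counts of 0 became, with a pseudocount of 1, 4 higher with RU486 in WT, 1 higher in PAX8PPARg under placebo, 1 lower under RU486 and 2 negative in the double difference, and, with quantile normalization, 1 higher under placebo and 1 negative in the double difference. The PAX8PPARg floor set per array gave 36 higher, since the floors were 8.3 and 35.3, and 2738 of all genes were higher with it. Removing centring moved the median of all genes by -0.13 for RU486 in PAX8PPARg and by 0.19 between genotypes under placebo. The split of all genes for RU486 in PAX8PPARg went from 1316 higher and 877 lower to 1028 and 1080. Averaging the probe sets of Krt8 took its PAX8PPARg minus WT value under RU486 from 1.39 to 0.67.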
